A study of Mus musculus with 12 samples.

Results

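The 39 lysosomal genes described here code for the acid hydrolases of the lysosome, their cofactors, the main proteins of its membrane and 1 transcription factor, Tfeb. They were chosen by name, with no measured value in the rule but with earlier results of these data known. All 39 were found among the 40840 genes of the expression tables. RNA was sequenced from the liver immune cells of 12 mice, 3 in each of 4 groups. WT-NCD and WT-HFD were C57BL/6 mice (C57BL/6J in the study's methods) on normal chow diet (NCD) or high-fat diet (HFD), and Casp11-/- NCD and Casp11-/- HFD were B6.129S4(D2)-Casp4tm1Yuan/J mice on the same diets. This line lacks caspase-11, the mouse sensor of cytosolic lipopolysaccharide that the gene Casp4 encodes, in every cell rather than in macrophages alone. Per the study's methods, the mice were male, began the diet at 8 to 10 weeks of age and stayed on it for 12 weeks, and the 2 diets came from different base formulations, so that they did not differ in fat content alone. The labels name the cells hepatic macrophages, and the methods describe a Percoll immune cell fraction of whole liver. The questions were how HFD and the loss of caspase-11 bear on the transcripts of these cells.

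Lysosomes are acidic compartments in which proteins, glycans and lipids taken up by endocytosis, phagocytosis or autophagy are broken down. The hydrolases are made in the endoplasmic reticulum and sorted to the lysosome mainly through mannose 6-phosphate tags, and heavily glycosylated membrane proteins such as LAMP1 and LAMP2 line its inner face. In liver macrophages, which clear lipoproteins, dead cells and bacteria from the portal blood, lysosomal acid lipase frees cholesterol and fatty acids from lipoproteins. The factor TFEB, held in the cytosol by mTORC1 at the lysosome when nutrients are plentiful, enters the nucleus on starvation or lysosomal stress and binds an E-box element, the CLEAR element, near the start sites of many lysosomal genes.

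The promoters of the list were therefore read for the core of this element, to show which members carry it. RefSeq promoter windows (250 bases before to 50 after each start site, GRCm38.p6) were matched by symbol for 35 of the 39 genes. The palindrome CACGTG was present in 11 of the 35 (31.4%), against 8.09% of 27025 genes with a window. The longer TCACGTG, which contains it and was searched on both strands, was present in 10 (28.6%) against 4.29%. With G before and AC after it, TCACGTG was present in 0 members and in 0.37% of genes. Members with TCACGTG were Ctsa, Ctsd, Gaa, Gla, Glb1, Lamp1, Lgmn, Mcoln1, Naglu and Sgsh, and Ctsl held the shorter CACGTG alone. The lines below give 1 site for each of 5 members that the results return to, 5′ to 3′ on the gene's strand, with the motif in capitals as it reads there (TCACGTG or its complement CACGTGA) and 20 bases on either side. They lie at chr8:13159113-13159159 (+ strand, motif from position -28) for Lamp1, chr7:142387899-142387945 (-, -98) for Ctsd, chr12:102439116-102439162 (-, -50) for Lgmn, chr11:119355513-119355559 (-, -29) for Sgsh and chrX:134601173-134601219 (-, -194) for Gla. The Ctsd and Lgmn sites lie inside the span that GENCODE gives each gene and the Sgsh site reaches into it, while all 5 are upstream of the RefSeq start used here.
Lamp1: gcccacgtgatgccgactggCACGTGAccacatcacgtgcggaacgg
Ctsd: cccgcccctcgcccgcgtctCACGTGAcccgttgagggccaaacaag
Lgmn: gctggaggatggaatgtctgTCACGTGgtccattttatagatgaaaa
Sgsh: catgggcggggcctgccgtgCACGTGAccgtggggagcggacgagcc
Gla: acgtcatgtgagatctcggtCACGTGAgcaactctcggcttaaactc
The Lamp1 stretch also shows further copies of the core in lower case. A match is a description of the sequence, and it does not show that TFEB binds there.

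The libraries had to be described before the genes could be compared. Expression was deposited as TPM, a length-corrected share of all RNA of a library scaled to a fixed total, with low values raised to a floor of 1.007 TPM. No read counts were at hand, so the depth of each library is unknown. WT-NCD replicate 3 stood apart: across genes other than the 39 its values correlated at -0.266 to -0.0671 with those of the other libraries, which correlated with each other at 0.846 or more. For this reason WT-NCD replicate 3 was left out of the comparisons below, and the values with all 12 libraries stand beside them. It also held 180 TPM on the 39 genes together, against 1503 to 5361 TPM in the other 11 libraries. In the 11 libraries protein-coding genes took 15.7 to 42.4% of TPM, and U3, a small nucleolar RNA of ribosome assembly, took 1.24 to 4.84% on NCD and 25.8 to 58.5% on HFD. A protein-coding gene could thus take less TPM on HFD with an unchanged place among protein-coding transcripts. Each comparison was therefore made on TPM as deposited and on rescaled TPM, in which the protein-coding genes of every library were brought to a common total.

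Cell type markers differed between the diets as well. The 6 Kupffer cell markers (Clec4f, Vsig4, Timd4, Cd5l, Marco, Folr2) made up 0.00477 to 0.00908% of protein-coding TPM on NCD and 0.0620 to 0.196% on HFD, and 9 macrophage markers made up 0.0304 to 0.0924% and 0.105 to 0.216%. B cell markers went the other way, with 0.193 to 0.429% on NCD and 0.0778 to 0.126% on HFD, as did NK cell markers, with 0.0434 to 0.0969% and 0.0274 to 0.0393%. Markers of sinusoidal endothelial cells made up 0.0234 to 0.118% on NCD and 0.117 to 0.434% on HFD. Their ranges met at the edge, and those of monocyte, neutrophil, T cell, dendritic cell and erythroid markers overlapped. Hepatocyte markers held 1.58 to 7.28% of protein-coding TPM, so the fraction was not made of macrophages alone. No marker was at the floor in all 11 libraries. The part of these shifts in the results on the 39 genes was not tested, and in bulk RNA fewer cells of a type and less RNA per cell cannot be told apart.

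The targeted gene Casp4 did not separate the genotypes. It read 12.1 and 15.6 TPM in WT-NCD replicates 1 and 2, 7.09, 5.60 and 11.4 TPM in WT-HFD, 4.93, 2.56 and 15.2 TPM in Casp11-/- NCD and 2.78, 8.68 and 4.73 TPM in Casp11-/- HFD. WT-NCD replicate 3 held 8.94 TPM. The library labelled Casp11-/- NCD replicate 3 thus held as much as WT-NCD libraries, and log2 fold changes of -1.08 ± 0.61 (SE) on NCD and -0.55 ± 0.54 on HFD had an adjusted p of 1 (limma). A gene-level value does not say whether reads fell in the deleted part, so genotype is given here as labelled.

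**Figure D1:**
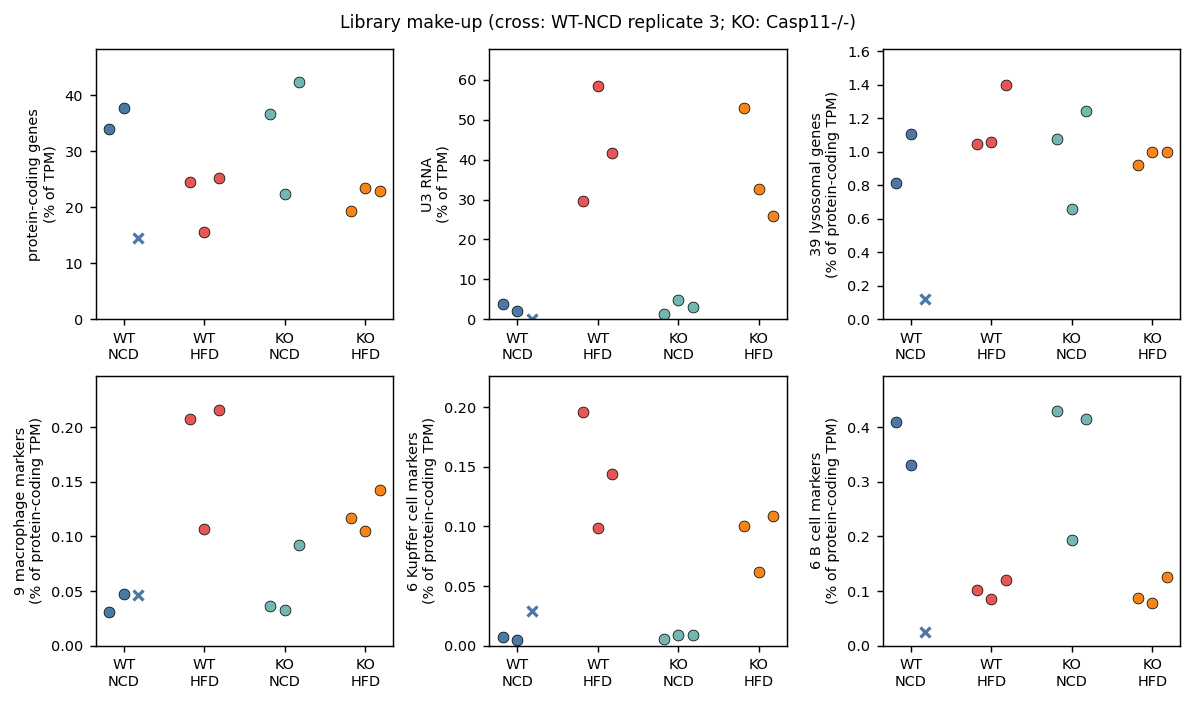
Make-up of the 12 libraries, 1 point for each library in its genotype-diet group: percent of TPM on protein-coding genes and on U3 RNA, and percent of protein-coding TPM on the 39 lysosomal genes and on markers of macrophages, Kupffer cells and B cells. U3 RNA and Kupffer cell markers were higher in every HFD library than in every NCD library of the 11, and WT-NCD replicate 3 (cross) held the lowest share of lysosomal transcripts.

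The 39 genes spanned a wide range of levels, given here as the median TPM over the 11 libraries. Psap, the precursor of the saposins that present sphingolipids to their hydrolases, led with 463 TPM. Laptm5, a lysosomal membrane protein of blood cells, followed with 273 TPM, then the cysteine protease Ctss with 177, Lamp1 with 176, Ctsb with 142 and the aspartic protease Ctsd with 140 TPM. Ctss and Lamp1, and likewise Ctsb and Ctsd, did not differ beyond their spread. At the low end stood Tfeb (4.84 TPM), Sgsh (4.83), Gla (4.58), Idua (4.38) and Gusb (4.32), which also lay within each other's range. All 39 genes were above the floor in every library, so none was lost to the filter on low values. Together they made up 0.660 to 1.24% of protein-coding TPM on NCD and 0.923 to 1.40% on HFD, ranges that overlapped.

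The answer on diet depended on the scale. On TPM as deposited, HFD against NCD over both genotypes called 3 of the 39 genes lower (Tfeb, Sgsh and Laptm5) and 0 higher at an adjusted p under 0.05 (limma on log2(TPM + 1), Benjamini-Hochberg over 17950 genes). Among all genes tested 17.3% were called lower and 1.07% higher, so the share of the list called lower, 7.69%, was below that of genes in general. At an unadjusted p under 0.05, 10 members were lower and 1, Lamp2, was higher, beside 34.1% and 2.7% of genes. The median log2 fold change of the 39 was -0.49, beside -0.39 over all genes tested. On rescaled TPM, 8 members were higher (Lamp2, Lipa, Lgmn, Ctsl, Scarb2, Ctsb, Tpp1 and Ctsd), which is 20.5% of the list against 6.23% of 11246 genes. Tfeb and Sgsh were lower, 5.13% against 6.8%. The shares of all genes at an unadjusted p under 0.05 were 12.7% higher and 20.1% lower. The median of the list was 0.15 and that of all genes -0.10, with 24 of 39 members above 0, against 10 of 39 on TPM. Rescaling multiplies all protein-coding genes of a library by a common factor, so it lifts the members together by construction. The rise from 10 to 24 members above 0 follows from the scale and is not a result about the members. Tfeb and Sgsh passed as lower on both scales.

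The calls rested on few libraries. On TPM the count fell to 0 (limma) when either WT-NCD library, WT-HFD replicate 2 or Casp11-/- HFD replicate 1 was left out, and was 1 without Casp11-/- NCD replicate 1 or WT-HFD replicate 1, 2 without Casp11-/- NCD replicate 3 or Casp11-/- HFD replicate 2 or 3, 5 without WT-HFD replicate 3 and 17, all lower, without Casp11-/- NCD replicate 2, where 45.8% of all genes were called lower. After rescaling the lowest counts were 2, in the absence of WT-NCD replicate 2, and 5, in the absence of WT-NCD replicate 1. The first WT-HFD, Casp11-/- NCD and Casp11-/- HFD libraries and WT-HFD replicate 2 each left 6 when taken out, and the remaining libraries 7 to 11. With all 12 libraries 0 members were called on TPM, beside 0.513% of genes called lower, and 2 members were lower at an unadjusted p under 0.05. After rescaling 2, Lipa and Lgmn, were called higher, against 2.83% of genes. Since the 8 genes higher after rescaling were named after their values were seen, they are described by every library below.

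**Figure D2:**
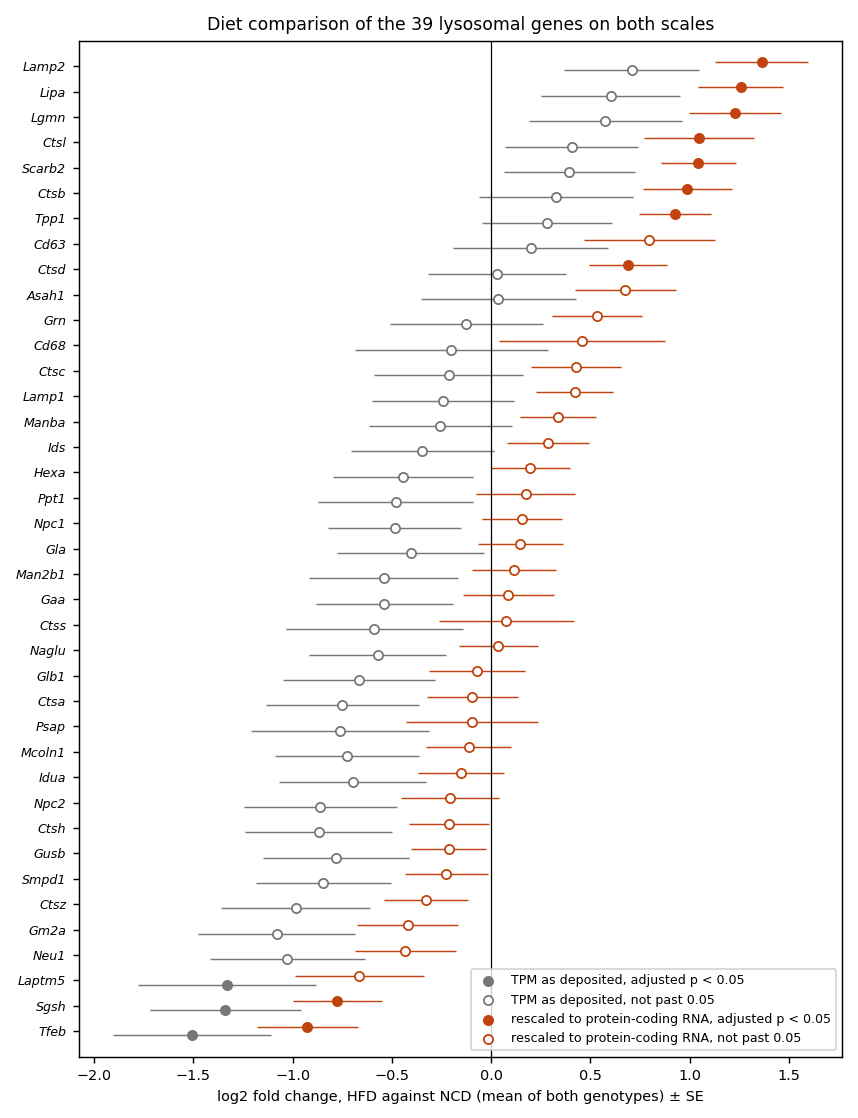
Log2 fold change, HFD against NCD as the mean of both genotypes, with its SE, for the 39 genes on TPM as deposited (grey) and on rescaled TPM (orange). Filled points passed an adjusted p of 0.05. Each gene lies further right after rescaling, which applies a common factor to all protein-coding genes of a library. On that scale 8 genes passed as higher and Tfeb and Sgsh still passed as lower.

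Of the membrane proteins, Lamp2 and Scarb2 were higher on HFD after rescaling. LAMP2 (chrX:38401357-38456454) lines the lysosomal membrane and one of its forms takes part in chaperone-mediated autophagy. Rescaled TPM of Lamp2 was 44.2 and 42.3 in WT-NCD, 111, 135 and 91.4 in WT-HFD, 25.7, 54.7 and 50.6 in Casp11-/- NCD, and 115, 97.6 and 118 in Casp11-/- HFD. Every HFD library exceeded every NCD library, which was true of 3.67% of genes in that direction, and the HFD median was 2.55 times the NCD median. The log2 fold change came to 1.36 ± 0.23 (SE; limma, adjusted p = 0.0063) and 0.71 ± 0.34 (adjusted p = 0.13) on TPM. The call after rescaling was kept without each of the 11 libraries in turn, and with all 12 libraries it was 1.92 ± 0.54 (adjusted p = 0.061).

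SCARB2, or LIMP-2 (chr5:92441314-92506833), carries the enzyme glucocerebrosidase to the lysosome. Rescaled TPM of Scarb2 was 32.3 and 26.2 in WT-NCD, 58.7, 62.2 and 57.3 in WT-HFD, 22.4, 36 and 28.0 in Casp11-/- NCD and 56.7, 55.1 and 72.7 in Casp11-/- HFD. The diets did not overlap, with a log2 fold change of 1.04 ± 0.19 (adjusted p = 0.0072, limma). It was 0.39 ± 0.33 on TPM (adjusted p = 0.36). Without WT-NCD replicate 2 the adjusted p after rescaling was 0.062, and with all 12 libraries it was 0.061.

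Lamp1 (chr8:13159161-13175338), the other major membrane glycoprotein, did not overlap between diets either. Rescaled TPM of Lamp1 was 115 and 140 in WT-NCD, 188, 165 and 180 in WT-HFD, 123, 136 and 145 in Casp11-/- NCD and 176, 155 and 188 in Casp11-/- HFD. The difference was small, with an HFD median of 1.31 times the NCD median and a log2 fold change of 0.42 ± 0.19, and it did not pass (adjusted p = 0.15, limma). An exact permutation test of diet within genotype gave p = 0.005 for this gene, the smallest p its 200 splits allow. On TPM the sign turned, at -0.24 ± 0.36 (adjusted p = 0.58), and with all 12 libraries it was 0.55 ± 0.77.

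Cd68, the macrophage sialomucin (chr11:69664213-69666153), varied more among mice than between diets. Rescaled TPM of Cd68 was 27.5 and 67.8 in WT-NCD, 68.9, 66.2 and 117 in WT-HFD, 53.4, 19.8 and 129 in Casp11-/- NCD and 50.9, 65.1 and 44.0 in Casp11-/- HFD. The lowest and the highest value were both in Casp11-/- NCD, and the log2 fold change was 0.46 ± 0.42 (adjusted p = 0.47, limma) after rescaling and -0.20 ± 0.49 on TPM. The direction therefore depended on the scale.

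Laptm5 (chr4:130913125-130936141), which targets immune receptors for lysosomal degradation, stood at 213 to 1025 TPM on NCD and 149 to 485 TPM on HFD. TPM of Laptm5 was 492 and 810 in WT-NCD, 272, 174 and 485 in WT-HFD, 861, 213 and 1025 in Casp11-/- NCD and 149, 273 and 197 in Casp11-/- HFD. Its log2 fold change on TPM was -1.33 ± 0.45 (adjusted p = 0.042, limma), and it kept the call without WT-HFD replicate 3 or Casp11-/- NCD replicate 2 but not without any other of the 11 libraries. After rescaling it was -0.66 ± 0.32 (adjusted p = 0.17) and passed only without Casp11-/- NCD replicate 2 (adjusted p = 0.022). With all 12 libraries it was -0.23 ± 1.1 on TPM and 0.23 ± 0.89 after rescaling. Its sign thus rested on leaving out WT-NCD replicate 3 after rescaling, but not on TPM, where the difference shrank. B cell markers, from cells that also carry LAPTM5, were lower in every HFD library than in every NCD library of the 11, and their part in the Laptm5 difference was not tested.

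The remaining membrane members did not pass on either scale. The tetraspanin Cd63 ranged from 3.71 to 13.5 rescaled TPM on NCD and 7.24 to 29.1 on HFD, with a log2 fold change of 0.80 ± 0.33 (adjusted p = 0.12). Npc1, which exports cholesterol from the lysosome, had the same median of 22.8 on both diets. Mcoln1, the calcium channel TRPML1, had medians of 10.1 on NCD and 9.64 on HFD.

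Of the 10 proteases, a group not set in advance, 5 were higher on HFD after rescaling, where 6.23% of all genes were. On TPM no protease was called higher. Lgmn, or asparaginyl endopeptidase (chr12:102394084-102439813), matures several cathepsins by cleavage after asparagine. Rescaled TPM of Lgmn was 38.6 and 32.2 in WT-NCD, 91.2, 53.6 and 93.3 in WT-HFD, 28.9, 23.3 and 38.2 in Casp11-/- NCD and 61.8, 72.9 and 100 in Casp11-/- HFD. The diets did not overlap, with a log2 fold change of 1.23 ± 0.23 (adjusted p = 0.0081, limma). It passed with all 12 libraries too (1.48 ± 0.36, adjusted p = 0.039) but not without WT-NCD replicate 2 (adjusted p = 0.062), and on TPM it was 0.57 ± 0.38 (adjusted p = 0.26).

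The cysteine protease Ctsb (chr14:63122462-63145923) had the highest median TPM of the 8 genes. Rescaled TPM of Ctsb was 72.1 and 88.1 in WT-NCD, 195, 163 and 220 in WT-HFD, 119, 68.0 and 121 in Casp11-/- NCD and 167, 149 and 179 in Casp11-/- HFD. Every HFD value exceeded every NCD value, and the log2 fold change was 0.99 ± 0.22 (adjusted p = 0.018, limma). On TPM it was 0.33 ± 0.39 (adjusted p = 0.49). The call was lost without WT-NCD replicate 1 (adjusted p = 0.097) or replicate 2 (adjusted p = 0.079).

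Ctsd (chr7:142375911-142388038), the aspartic protease whose promoter site is printed above, differed less. Rescaled TPM of Ctsd was 101 and 105 in WT-NCD, 162, 138 and 170 in WT-HFD, 92.1, 110 and 73.4 in Casp11-/- NCD and 157, 154 and 160 in Casp11-/- HFD. The diets did not overlap, at a log2 fold change of 0.69 ± 0.20 (adjusted p = 0.039, limma), but the call was kept only without Casp11-/- NCD replicate 2 and lost without each of the other 10 libraries (adjusted p up to 0.16). On TPM the values were 88.0 to 175 on HFD and 100 to 163 on NCD, a log2 fold change of 0.03 ± 0.35.

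Tpp1 (chr7:105744811-105752235) removes tripeptides from the ends of proteins. Rescaled TPM of Tpp1 was 25.9 and 20.8 in WT-NCD, 46.2, 45.5 and 40.6 in WT-HFD, 20.9, 28.9 and 23.8 in Casp11-/- NCD and 50.8, 39.5 and 55.2 in Casp11-/- HFD. The NCD values lay below 30 and the HFD values above 39, and the log2 fold change was 0.92 ± 0.18 (adjusted p = 0.0092, limma). Without WT-NCD replicate 2 the adjusted p was 0.081, with all 12 libraries 0.058, and on TPM 0.49.

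Ctsl (chr13:64359337-64370890), a cysteine endopeptidase, was the only one of the 8 genes whose diets overlapped. Rescaled TPM of Ctsl was 32.2 and 25.4 in WT-NCD, 44.2, 37.0 and 33.1 in WT-HFD, 14.2, 35.6 and 10.6 in Casp11-/- NCD and 54.8, 53.4 and 71.6 in Casp11-/- HFD. The 2 lowest values of all were in Casp11-/- NCD and the 3 highest in Casp11-/- HFD. Its log2 fold change over both genotypes was 1.05 ± 0.28 (adjusted p = 0.030, limma), kept in 4 of the 11 fits that left out a library. On TPM it was 0.41 and was not called in any fit (adjusted p of 0.108 or more, limma).

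The other proteases were not called. Ctss, which cuts the invariant chain in antigen-presenting cells, read 80.2 to 280 rescaled TPM on NCD and 121 to 341 on HFD. Ctsa, the protective protein of neuraminidase and beta-galactosidase, had medians of 50.3 and 42.4, and the aminopeptidase Ctsh of 74.7 and 57.3. The exopeptidase Ctsz stood at 75.3 and 57.4 and the dipeptidyl peptidase Ctsc at 18.6 and 30.0. Log2 fold changes of these 5 after rescaling lay between -0.33 (Ctsz) and 0.43 (Ctsc). On TPM, Ctsz (-0.99 ± 0.37, adjusted p = 0.064) and Ctsh (-0.87 ± 0.37, adjusted p = 0.092) were the lowest of them and did not pass.

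**Figure D3:**
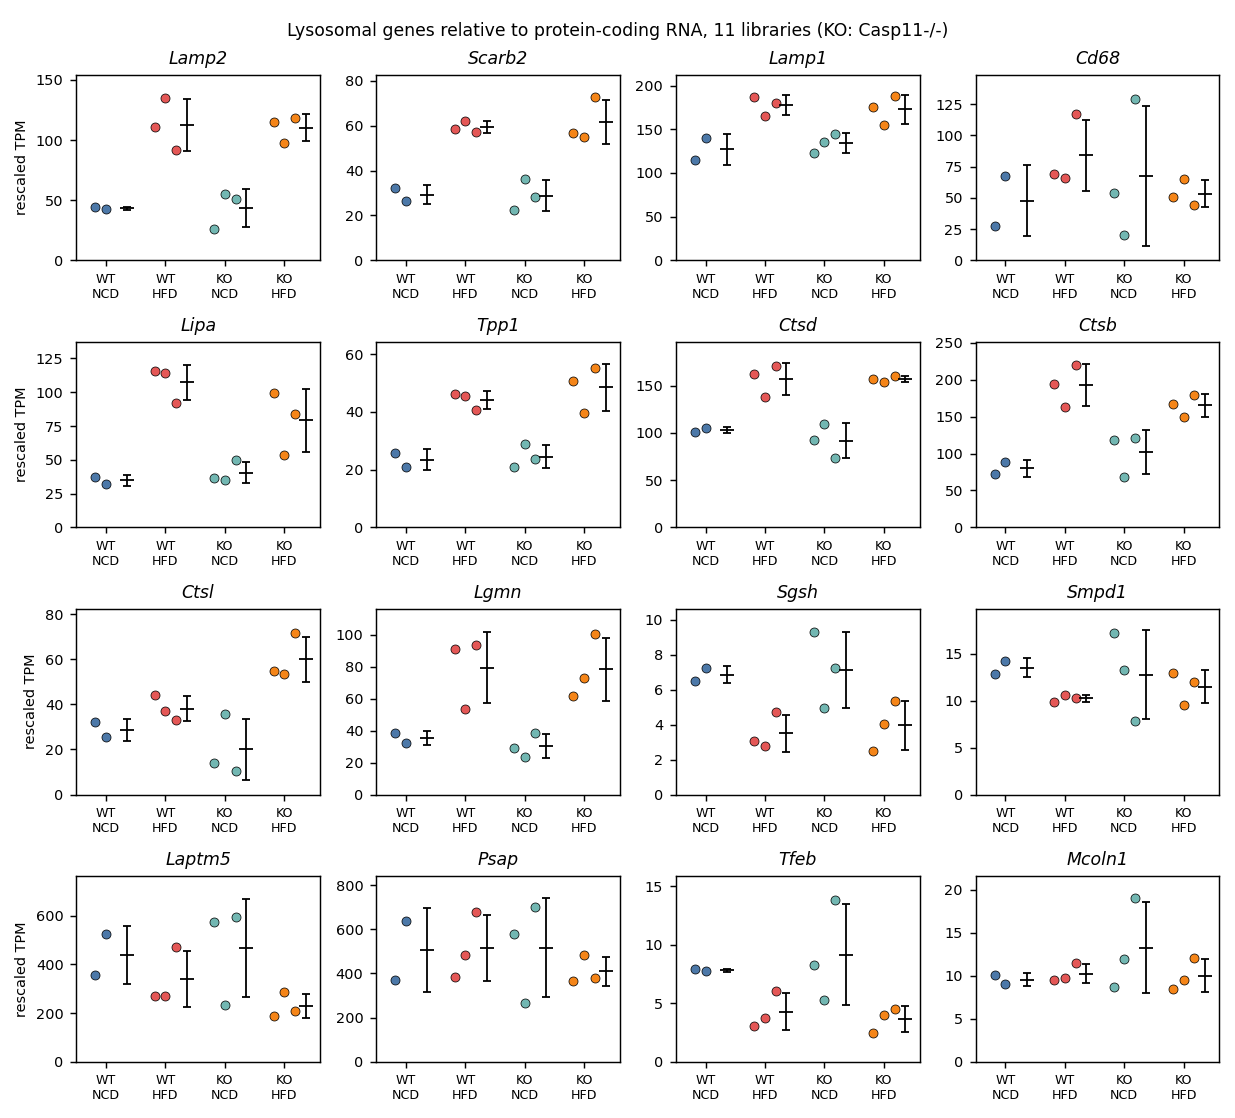
Rescaled TPM of 16 lysosomal genes in the 11 libraries, 1 point for each library in its group, with the group mean and SD to the right (n = 2 for WT-NCD, 3 for the others). Lamp2, Scarb2, Lamp1, Lipa, Tpp1, Ctsd, Ctsb and Lgmn lie higher in each HFD library than in each NCD library, while Cd68, Psap, Smpd1 and Mcoln1 overlap.

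Among the genes of lipid breakdown, Lipa, lysosomal acid lipase (chr19:34492318-34527474), was higher on HFD. Rescaled TPM of Lipa was 37.6 and 32.1 in WT-NCD, 116, 114 and 92.0 in WT-HFD, 36.7, 35.1 and 49.7 in Casp11-/- NCD and 99.6, 53.6 and 84.2 in Casp11-/- HFD. The HFD median was 2.61 times the NCD median, the largest such ratio among the 39 genes, although the lowest HFD library lay close to the highest NCD library. The log2 fold change was 1.26 ± 0.21 (adjusted p = 0.0063, limma) and passed without each of the 11 libraries in turn and with all 12 (1.60 ± 0.40, adjusted p = 0.042). On TPM it was 0.60 ± 0.35 (adjusted p = 0.20).

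The other lipid genes were not called on either scale. Asah1, acid ceramidase, came nearest after rescaling, at 0.68 ± 0.25 (adjusted p = 0.091), with medians of 18.1 on NCD and 25.6 on HFD. Psap ranged from 268 to 703 on NCD and 365 to 679 on HFD. Gm2a, the activator that lifts GM2 ganglioside out of the membrane, had medians of 114 on NCD and 71.2 on HFD (log2 fold change -0.42 ± 0.26, adjusted p = 0.27), and on TPM it missed the threshold at -1.08 ± 0.39 (adjusted p = 0.055). Npc2, which hands cholesterol to NPC1, had medians of 47.3 and 34.1, and Ppt1, which removes palmitate from proteins, of 42.5 and 47.8. Smpd1, acid sphingomyelinase, was the only member whose TPM did not overlap between diets, with 12.1 to 25.9 TPM on NCD and 6.77 to 11.3 TPM on HFD. It did not pass (-0.85 ± 0.34, adjusted p = 0.076), 5.6% of genes were likewise lower without overlap, and after rescaling it overlapped, at 7.82 to 17.3 and 9.53 to 13. Grn, the progranulin that sustains several of these enzymes, had medians of 77.6 and 95.0 and a log2 fold change of 0.53 ± 0.23 after rescaling (adjusted p = 0.12).

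Of the 12 glycosidases and sulfatases, Sgsh alone was called. Sgsh (chr11:119343425-119355536) is the sulfamidase that removes N-sulfate from heparan sulfate. TPM of Sgsh was 9.04 and 11.1 in WT-NCD, 3.04, 1.77 and 4.83 in WT-HFD, 13.9, 4.49 and 12.4 in Casp11-/- NCD and 1.96, 3.86 and 4.99 in Casp11-/- HFD. All HFD values lay below 5, among them some close to the floor, and Casp11-/- NCD replicate 2 fell in their range. Its log2 fold change was -1.34 ± 0.38 on TPM (adjusted p = 0.024, limma) and -0.77 ± 0.22 after rescaling (adjusted p = 0.041), and with all 12 libraries adjusted p was 0.23 and 0.079. Leaving out a library kept the call in 5 of 11 fits on TPM and in 3 of 11 after rescaling.

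The enzymes that act on the same polymer or linkage did not move with Sgsh past the threshold. Naglu, a later enzyme of heparan sulfate breakdown, had rescaled medians of 9.56 on NCD and 9.18 on HFD. Idua and Ids, which attack heparan and dermatan sulfate, had medians of 3.88 and 3.59 and of 13.8 and 17.6, and Gusb, beta-glucuronidase, of 5.24 and 4.22. The neuraminidase Neu1 had medians of 9.30 on NCD and 5.98 on HFD, at -0.43 ± 0.26 after rescaling (adjusted p = 0.26) and -1.03 ± 0.39 on TPM (adjusted p = 0.064). Gaa, the acid alpha-glucosidase of glycogen, read 11.4 to 24.0 on NCD and 10.3 to 26.4 on HFD. Glb1, Hexa, Man2b1 and Manba, which remove galactose, hexosamine and alpha- and beta-linked mannose, had log2 fold changes of -0.07, 0.20, 0.11 and 0.34 after rescaling, with SEs of 0.19 to 0.24. Gla, the alpha-galactosidase of globosides, was at 0.15 ± 0.21 over both genotypes and returns below.

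Tfeb, the regulator in the list (chr17:47737030-47792419), was lower on HFD on both scales. TPM of Tfeb was 11 and 11.9 in WT-NCD, 3.03, 2.37 and 6.23 in WT-HFD, 12.4, 4.84 and 23.9 in Casp11-/- NCD and 1.90, 3.85 and 4.19 in Casp11-/- HFD. Only WT-HFD replicate 3 exceeded an NCD library, Casp11-/- NCD replicate 2. The log2 fold change was -1.51 ± 0.40 (adjusted p = 0.018, limma), the most negative of the 39, and -0.93 ± 0.25 after rescaling (adjusted p = 0.035). An exact permutation test within genotype gave an unadjusted p = 0.01 on either scale, and p = 0.06 on TPM with all 12 libraries. The call was lost on TPM when WT-NCD replicate 1 (adjusted p = 0.055) or 2 (0.091), WT-HFD replicate 2 (0.059) or Casp11-/- HFD replicate 1 (0.058) was left out, and with all 12 libraries (-1.14 ± 0.50, adjusted p = 0.28). After rescaling it was kept in 4 of 11 such fits. The transcript level of Tfeb does not show where the protein is, and of the members with TCACGTG in their promoter Ctsd and Lgmn were called higher, Sgsh lower and the other 7 neither way after rescaling.

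The make-up of the lysosomal transcripts gave another view that depends on neither scale, as the percent that each gene took of the summed TPM of the list in its own library. It carries no test, and a share falls where another rises. Laptm5 took 14.2 to 21.4% on NCD and 8.23 to 13.5% on HFD, and Tfeb 0.279 to 0.446% and 0.105 to 0.180%. Neither range overlapped. Sgsh likewise took 0.232 to 0.345% and 0.105 to 0.214%, Gm2a 3.78 to 4.42% and 2.26 to 3.42%, Ctsz 2.65 to 3.52% and 1.86 to 2.49%, and Gusb 0.184 to 0.258% and 0.152 to 0.181%. In the other direction Ctsb took 3.18 to 4.41% on NCD and 5.95 to 7.44% on HFD, Lgmn 1.07 to 1.90% and 2.02 to 4.03%, Lipa 1.16 to 2.13% and 2.14 to 4.42%, and Grn 2.50 to 3.29% and 3.30 to 4.14%. For the last 3 the highest NCD library came close to the lowest HFD library. The shares of Lamp2, Scarb2, Tpp1, Ctsd and Ctsl, also called higher after rescaling, overlapped between diets. Lamp2 took 0.954 to 3.32% on NCD and 2.61 to 5.09% on HFD, Scarb2 0.832 to 2.19% and 1.64 to 2.92%, and Ctsd 2.36 to 6.67% and 4.87 to 6.83%. Such shares were not taken for other genes, so no background stands beside them. Psap remained the largest entry, with a median of 21.5% on NCD and 17% on HFD. Man2b1 and Ppt1 hardly moved, with medians of 2.24 and 2.20% and of 1.93 and 1.92%.

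**Figure D4:**
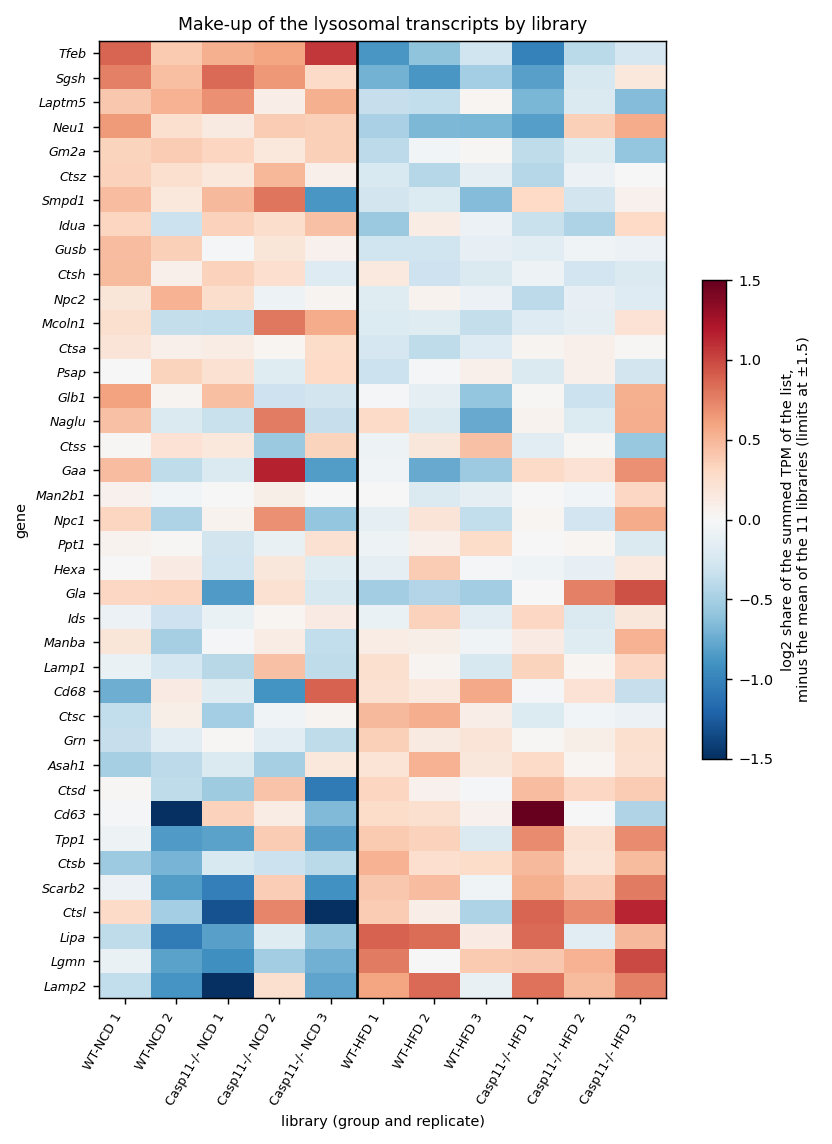
Log2 share of each gene in the summed TPM of the 39, minus its mean over the 11 libraries, with NCD libraries left and HFD libraries right of the line and genes in order of the difference between diets. Tfeb, Sgsh and Laptm5 at the top took larger shares on NCD, and Lipa, Lgmn and Lamp2 at the bottom on HFD, while Casp11-/- NCD replicate 2 lay above the mean for Lamp2, Scarb2 and Ctsl, as most HFD libraries did.

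Within each genotype fewer genes passed. In WT, 0 of 39 were called on TPM (limma), beside 2.04% of genes called lower and 0.134% higher. At an unadjusted p under 0.05, 4 were lower and 0 higher, against 14.3% and 0.953% of genes. After rescaling, Lipa was higher in WT-HFD than in WT-NCD (1.59 ± 0.32, adjusted p = 0.046), against 0.48% of genes called higher and 0.4% lower. At an unadjusted p under 0.05, 10 were higher and 1 lower, against 8.91% and 7.58% of genes. Without 1 library of the 11, the count of members called in WT at an adjusted p under 0.05 after rescaling ran from 0 to 4. In Casp11-/- mice 0 were called on TPM (limma), beside 0.986% called lower and 0.117% higher. At an unadjusted p under 0.05, 4 were lower and 1 higher, against 24.3% and 2.74% of genes. Rescaled, 4 were higher: Ctsl (1.70 ± 0.37, adjusted p = 0.034), Lamp2 (1.38 ± 0.31, 0.037), Lgmn (1.35 ± 0.31, 0.038) and Scarb2 (1.08 ± 0.25, 0.040), against 2.53% of genes. At an unadjusted p under 0.05, 9 were higher and 2 lower, against 8.78% and 16.6% of genes. Without Casp11-/- NCD replicate 2 the counts were 19 on TPM, 18 of them lower, and 10 after rescaling, 6 higher and 4 lower. In those fits 46.1% of all genes were called lower and 3.03% higher on TPM, and 17.9% and 7.83% after rescaling. Leaving out any other of the 11 gave at most 2 after rescaling. With all 12 libraries 0 members were called within either genotype on either scale, with up to 11 at an unadjusted p under 0.05.

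Side by side and after rescaling, the diet differences of the genotypes were within each other's SE for several members. Lamp2 was at 1.34 ± 0.35 in WT and 1.38 ± 0.31 in Casp11-/-, Scarb2 at 1.0 ± 0.28 and 1.08 ± 0.25, Tpp1 at 0.89 ± 0.27 and 0.96 ± 0.24, and Sgsh at -0.83 ± 0.33 and -0.72 ± 0.30. The values of Tfeb were -0.78 ± 0.38 and -1.07 ± 0.34. Ctsl was at 0.39 ± 0.41 and 1.70 ± 0.37, and Gla at -0.43 ± 0.32 and 0.73 ± 0.29.

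**Figure D5:**
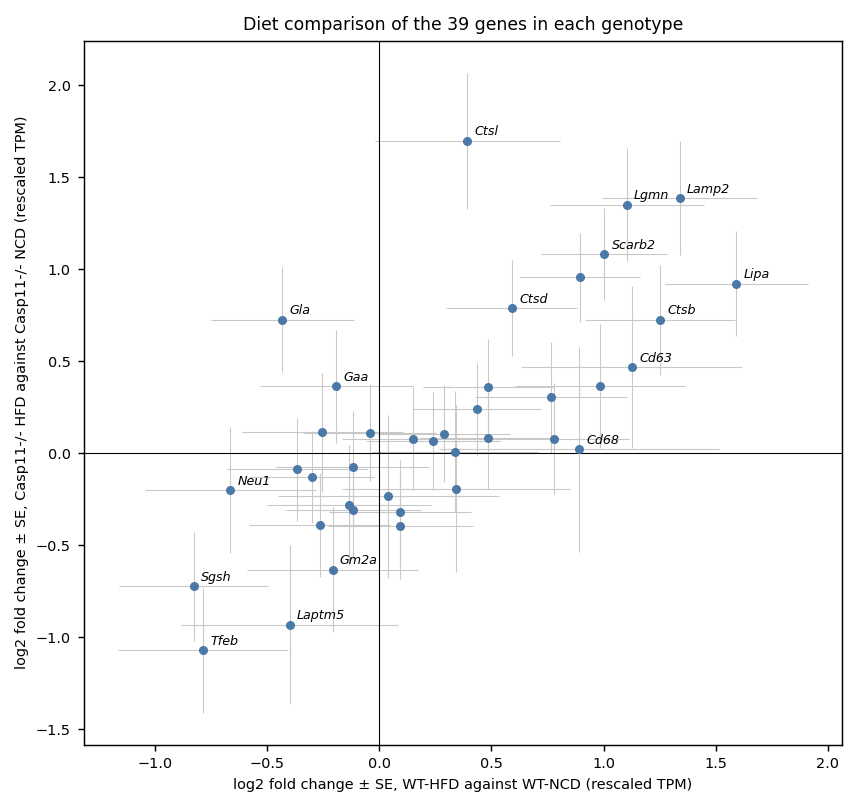
Log2 fold change with SE of the 39 genes after rescaling, WT-HFD against WT-NCD on the horizontal and Casp11-/- HFD against Casp11-/- NCD on the vertical axis. Lamp2 and Scarb2 lie at like values on both axes, and Ctsl and Gla are the points farthest above the trend, though neither passed the test of the difference between genotypes.

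That difference was tested as the interaction of diet and genotype, and 0 members passed on either scale (limma), beside 0.00557% and 0% of genes called. At an unadjusted p under 0.05 there was 1 member on TPM, where 1.45% of genes lay higher and 1.15% lower, and 2 after rescaling, where 1.05% and 3.33% did. The smallest p values belonged to Gla after rescaling (limma, 1.16 ± 0.43, adjusted p = 0.92) and to Ctsl (1.30 ± 0.55, adjusted p = 0.92, and 1.48 ± 0.67, adjusted p = 1 on TPM). Rescaled TPM of Gla was 4.63 and 6.36 in WT-NCD, 3.35, 3.58 and 4.46 in WT-HFD, 2.75, 3.54 and 4.84 in Casp11-/- NCD and 4.22, 7.73 and 8.88 in Casp11-/- HFD. The lowest value was in Casp11-/- NCD and the 2 highest in Casp11-/- HFD, and the WT-HFD values lay below both WT-NCD values, as they did for 21.8% of genes.

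The direct comparisons of genotype called 0 members on either diet and either scale, also with all 12 libraries and with each of the 11 left out. On NCD 0 had an unadjusted p under 0.05 on either scale, where 1.38% of genes lay higher and 1.86% lower on TPM and 1.72% and 0.854% after rescaling, beside 0.0557% of genes called lower on TPM and 0.00889% after rescaling. Ctsl came first at -0.82 ± 0.50 on TPM (limma, adjusted p = 1) and -0.67 ± 0.41 after rescaling. Gla was at -0.61 ± 0.55 on TPM and -0.47 ± 0.32 after rescaling, and Cd63 was at 0.64 ± 0.49 after rescaling. On HFD 0% of genes were called, and 2 members had an unadjusted p under 0.05 after rescaling, where 1.33% of genes lay higher and 1.61% lower, and 0 on TPM. By limma these were Gla (0.68 ± 0.29, adjusted p = 1) and Ctsc (-0.71 ± 0.30, adjusted p = 1). Rescaled TPM of Ctsc was 36, 38.2 and 36.9 in WT-HFD and 19.7, 23.9 and 23.2 in Casp11-/- HFD. With at most 3 mice in a group, a difference of the size of these SEs was not detectable.

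Other genes of the lysosome were read from lists by function, for the diet comparison over both genotypes. Of all genes tested, 17.3% were called lower and 1.07% higher on TPM, and 6.8% and 6.23% after rescaling, so the counts in these lists describe their genes and are not a result particular to any list. Of further hydrolases tested on TPM 0 were higher, and those called lower included Galns, Scpep1 and Naaa. Of the 32 tested after rescaling, 3 were higher and 2 lower. The higher were the hyaluronidase Hyal2 (1.06 ± 0.26, adjusted p = 0.022), the galactosylceramidase Galc (0.56 ± 0.14, adjusted p = 0.027, near the floor on NCD) and the acid phosphatase Acp2 (1.0 ± 0.26, adjusted p = 0.029). Galns, the sulfatase of keratan sulfate, was lower at -1.01 ± 0.25 (adjusted p = 0.026, reaching the floor on HFD), as was the serine carboxypeptidase Scpep1 (-0.80 ± 0.24, adjusted p = 0.046). Of 28 further membrane proteins and transporters, 25 were tested. Mcoln2, Slc15a4, Abca2 and Sidt2 were lower on TPM, and after rescaling Tmem106b, Laptm4b and Cd164 were higher and Mcoln2, a relative of the channel Mcoln1, lower (-0.96 ± 0.24, adjusted p = 0.027).

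None of the subunits of the vacuolar ATPase, the proton pump that acidifies the lysosome, was called (0 of 19 on TPM and 0 of 18 after rescaling, with medians of -0.63 and -0.01). Of 19 genes that sort the enzymes, the adaptor Gga2 was lower on both scales (-1.85 ± 0.37, adjusted p = 0.0023, and -1.23 ± 0.22, adjusted p = 0.0069), and Gnptab and Gnptg, subunits of the enzyme that makes the mannose 6-phosphate tag, were lower on TPM only. Among 19 relatives and controllers of TFEB, Rraga, Rptor, Lamtor4 and Mtor were lower on TPM. Of the 17 tested after rescaling, Tfec (0.94 ± 0.13, adjusted p = 0.0026) and the folliculin partner Fnip2 (0.70 ± 0.20, adjusted p = 0.043) were higher. Fnip2 ran from the floor of 1.57 to 3.34 rescaled TPM on NCD and from 2.79 to 6.72 on HFD, so its diets overlapped. Tfec, a macrophage-restricted relative of Tfeb, was at 1.57 to 1.95 rescaled TPM on NCD, at or near the floor of 1.57, and at 3.51 to 4.96 on HFD. Of the 4 inhibitors of cysteine cathepsins that could be tested, Cst7 (cystatin F), made by lymphocytes and activated phagocytes, was lower on both scales (-1.52 ± 0.36, adjusted p = 0.0091, and -0.95 ± 0.22, adjusted p = 0.019). Of 20 autophagy genes, the receptor Optn was higher on both (1.74 ± 0.40, adjusted p = 0.0078, and 2.28 ± 0.49, adjusted p = 0.014), and Wipi2 and Uvrag were lower on TPM. Casp11-/- NCD replicate 2 held 25.7 rescaled TPM of Optn, inside the HFD range of 15.2 to 43.1. Optn was called within WT on TPM only and within Casp11-/- on neither scale.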

How the data were processed

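RNA from the liver immune cell fraction of 12 mice was sequenced by the authors as stranded, random-primed total RNA on an Illumina HiSeq instrument, with reads aligned by STAR to mm10. The annotation, the versions and the strand setting were not given in the sources used here. The authors deposited 1 value per gene and library, their TPM from Qlucore, with low values raised to a floor of 1.007. Because of that floor it was treated as a score rather than as a plain TPM. No counts were at hand, so depth is unknown and a count test was not used. The header of Casp11-/- HFD replicate 2 carries a shortened group name, and its sample was taken from the labels.

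Groups followed the labels, with 3 mice in each. The 66 pairs of libraries held no identical pair. From the deposited scores, log2(TPM + 1) was fitted with limma 3.58.1 (R 4.3.3, trend of the spread on the mean, 4 group means) over the 11 libraries without WT-NCD replicate 3, for the 17950 genes whose TPM exceeded the floor in 3 or more libraries. p-values were two-sided and adjusted by Benjamini-Hochberg over all genes tested, and fold changes on the log2(TPM + 1) scale understate those of low genes. For rescaled TPM, protein-coding genes (by RefSeq) were brought to the median protein-coding total of the libraries and values under the highest resulting floor, 1.57, were raised to it, which left 11246 genes. Single genes were also tested with an exact permutation of diet within genotype. On simulated data of 17950 genes for the diet comparison over both genotypes, 38.75% of genes changed by 1 log2 unit were recovered, 88.75% of those changed by 2 and 100% of those changed by 4. Only 200 genes were changed there and each gene varied independently. Shifts shared by a whole library, as seen in the real data, and the rescaled scale were not simulated.

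The result of 1 gene of the other lists is not reported here. The 39 genes and all other lists were chosen with earlier results of these data known. Values in every library are given for Lamp1, Ctsd, Cd68 and Tfeb and, for each comparison of diet, for up to 6 members in each direction of smallest p that passed, or up to 3 where fewer passed, together with every member called after rescaling, which was added once values had been seen. For the genotype comparisons and the interaction, up to 3 members of smallest p are named. Alternatives changed the libraries, the scale, the filter, the pseudocount (0.1), the source of the spread and the threshold, added a replicate block or left out each library. Marker lists of monocytes, neutrophils, T cells, NK cells, dendritic cells, endothelial and erythroid cells were read as well. Tables and exact tests were made in Python 3.11.15 (scipy 1.17.1, numpy 2.4.6, pandas 2.3.3) and figures in matplotlib 3.10.9.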

Additional observations from a re-analysis of the deposited data

How the results depend on the processing

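Of the 39 genes, 3 were called for diet over both genotypes on TPM. The count was 0 with all 12 libraries, 0 with a filter of 1 value above the floor, 6 with every library above the floor, 10 after rescaling, 12 with the replicate block, 11 at an unadjusted p under 0.05, 0 to 17 without 1 library and 2 to 11 without 1 library after rescaling. The median over the 17950 genes tested on TPM was -0.39, with 192 called higher and 3097 lower. Over the 11246 protein-coding genes tested after rescaling it was -0.10, with 701 and 765, a difference in which the scale and the set of genes changed together. In WT, where 0 were called, it was 1 after rescaling, 0 to 4 without 1 library after rescaling, 2 with the block, 3 with the spread from the groups compared and 4 at an unadjusted p under 0.05. In Casp11-/- mice, also at 0, it was 1 with every library above the floor, 4 after rescaling, 0 to 10 without 1 library after rescaling, 1 with the block, 0 to 19 without 1 library and 5 at an unadjusted p under 0.05. The interaction had 1 at an unadjusted p under 0.05. The cause of these shifts was not tested.

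Lamp1 (-0.24) was at 0.55 with all 12 libraries, 0.42 after rescaling, 1.0053 with both, -0.37 to -0.11 without 1 library and 0.35 to 0.49 without 1 library after rescaling. Cd68 (-0.20) was at 0.21, 0.46 and 0.65, at -0.67 to 0.22 without 1 library and at 0.12 to 0.78 without 1 library after rescaling. Ctsd (0.03) was at -0.017 with the block and at -0.063 to 0.18 without 1 library, or 0.61 to 0.76 after rescaling. Laptm5 (-1.33) was at 0.23 after rescaling with all 12 libraries. Whether the replicate numbers pair the mice could not be settled. The 15 same-numbered pairs correlated at -0.33 to 0.47, 8 of them over 0.1, and 6 of 11 libraries correlated best with their own number.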
